A study of Mus musculus with 6 samples.

Results

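The liver of mice lacking OGA in hepatocytes was compared with control liver 14 days after partial hepatectomy, an operation that takes out several liver lobes and is followed by regrowth of those left. The comparison rests on 2 of the 6 libraries of the study, 1 per group, and on the 11801 of 12027 genes in the count table that had at least 1 CPM (a count scaled to a fixed library size) in either of them. The OGA-KO group has the genotype label OGA-/- and is described as a hepatocyte-specific knockout, and the control group has the label OGAfl/fl, that is, the floxed Oga gene without its deletion. Both groups were male C57BL/6 mice, 8 weeks old, and both had undergone the hepatectomy (PHX), so that what they share is the operation and not an intact liver. Each library came from whole-liver RNA of 3 mice, mixed in equal parts, and was sequenced as mRNA in 2 lanes. The Cre driver of the deletion, and whether the controls carried a Cre, are not given in the sources used here. An OGA-KO and an OGA control library of 28 days, with the same genotypes and treatment, serve as a comparison. The fits across all genes also hold the study's other line at 28 days, OGT-KO (genotype OGT-/y, likewise a hepatocyte-specific knockout) and OGT control (OGTfl/y), from mice of the same strain, sex, age and operation and pooled in the same way.

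O-GlcNAc is a single sugar attached to serines and threonines of proteins in the nucleus and cytoplasm. OGT, the O-GlcNAc transferase, attaches it, using a sugar nucleotide made from glucose, glutamine and other metabolites in the hexosamine pathway, and OGA, the O-GlcNAcase, removes it. Loss of OGA therefore leaves the sugar on proteins for longer. In liver the modification is known from transcription regulators of glucose and lipid metabolism, from clock proteins and from chromatin factors.

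Oga had the lowest ratio of the pair. The library labelled OGA-KO had 282 Oga counts (10.4 normalised CPM), against 1525 counts (62.2 normalised CPM) in control. Normalised CPM use an effective library size, which corrects for composition, and are not divided by gene length, so that they compare libraries and not genes. The log2 ratio of OGA-KO over control was -2.57, with a 95% counting interval of -2.76 to -2.39. At 28 days Oga had 12.8 CPM in OGA-KO and 67.2 CPM in control (log2 -2.38), so the level in all 4 libraries was on the side of its label. Reads from cells other than hepatocytes, and from parts of the gene outside the deletion, remain in such a count. Ogt was counted 2051 times in OGA-KO, against 1798 times in control, a log2 ratio of 0.05 (-0.04 to 0.14). Of the 17 measured genes of O-GlcNAc cycling and the hexosamine pathway, 9 were above and 8 below 0, with a median of 0.04. Gfpt1, the entry enzyme of the pathway, stood at -0.26 with 29.1 CPM in OGA-KO and 34.9 CPM in control. Gnpda1, which catalyses the opposite conversion, stood at 0.28 with 31.6 CPM in OGA-KO and 26.1 CPM in control. At 28 days Gnpda1 stood at -0.22. Its relative Gnpda2 lay on the other side of 0 at 14 days, at -0.44, and at -0.08 at 28 days. Apart from Oga no member of the list was 1.5-fold apart.

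The 2 libraries of the pair differed about as much as the 2 OGA controls did from each other. Of the 11801 genes, 63 (0.534%) were at least 2-fold higher and 36 (0.305%) at least 2-fold lower in OGA-KO, or 99 genes (0.839%) in all. Between the OGA controls of 28 and 14 days, which differ in time and not in genotype, the same rule passed 109 genes (0.927%); that comparison shares the 14-day control library with the pair. The OGA-KO and control pair of 28 days passed 304 genes (2.57%). The standard deviation of the log2 ratio over genes was 0.272 at 14 days, 0.466 at 28 days and 0.271 between the controls. At 1.5-fold, 329 genes (2.79%) were higher and 217 (1.84%) lower at 14 days, or 4.63% in all. Over all genes, 50.4% of the ratios lay above 0 and 49.6% below, around a median of 0.00. These shares of all genes are those to set beside the counts of list members below. Total counts were 29327722 in OGA-KO and 26504375 in control. With 1 library per group there is no spread between replicates to set a difference against, and the 14-day pair by itself has no test. The intervals cover counting error alone: they excluded 0 for 31.7% of genes in this pair and for 31% between the controls.

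**Figure D1:**
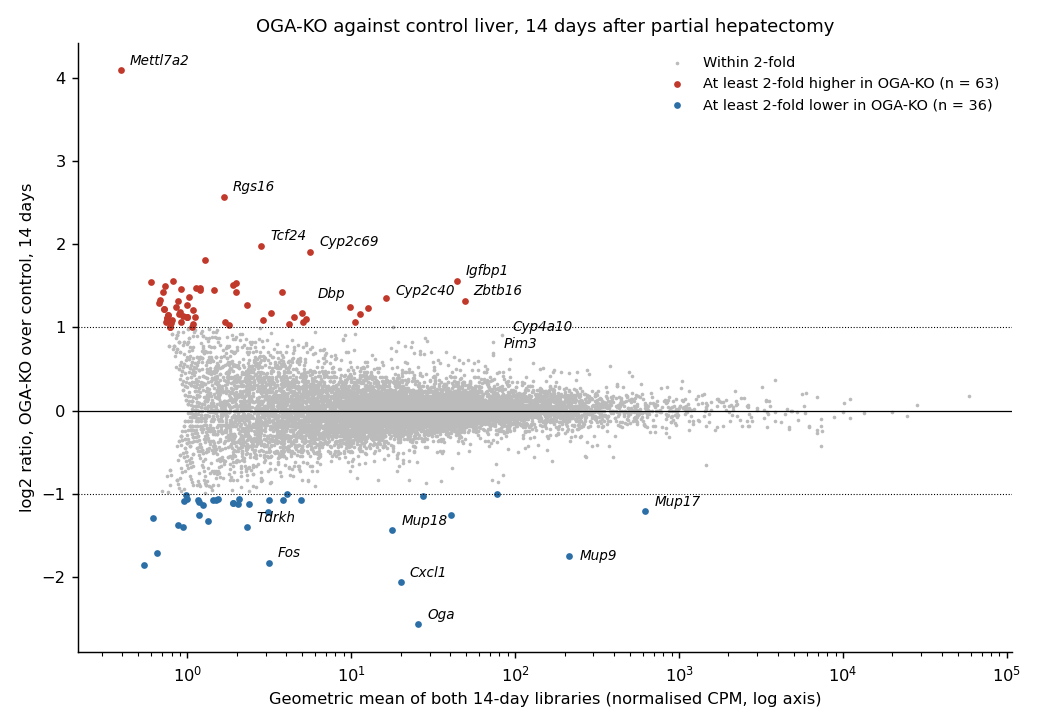
Each point is a gene with at least 1 CPM in either 14-day library, with its mean level over both libraries (normalised CPM, log axis, libraries at 0 drawn at the level of 3 counts) and its log2 ratio of OGA-KO over control. The 63 higher and 36 lower genes past 2-fold are coloured; Oga and Cxcl1 lie lowest among genes above 10 CPM, Mup9 and Mup17 have the highest mean CPM past 2-fold, and Mettl7a2, at 34 counts in OGA-KO and 0 in control, is highest.

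A second control library allows a limited test. OGA-KO at 14 days was fitted with edgeR's quasi-likelihood test against both OGA controls together, with the OGT pair of the study in the same fit, so that the difference between the controls, which are 14 days apart, supplied the spread (1 residual degree of freedom, with the lone OGA-KO library assumed to vary like the controls). This is 1 of the 4 fits that leave out an OGA library from the fit over both times, which called 0 to 318 genes, and it was taken as a test of its own after the data were seen. Without either control no degree of freedom would be left. Of 12001 genes tested, 7 (0.0583%) passed an adjusted p of 0.05, and 898 had an unadjusted p under that value. Oga fell (log2 -2.63, adjusted p = 0.000195), and so did the chemokine gene Cxcl1 (-2.04, 0.00156) and the major urinary protein genes Mup16 (-1.38, 0.0189) and Mup18 (-1.60, 0.0207). Zbtb16 (1.35, 0.00176), the fatty acid hydroxylase gene Cyp4a10 (0.92, 0.0189) and Fkbp5 (0.91, 0.0219) rose. Each of the 7 lay on the same side of both controls. This follows in part from the test itself, whose spread is the gap between those controls. In the edgeR fit over both times, with the 28-day OGA-KO library and a day term, Oga alone of the 7 passed: the adjusted p was 0.0742 for Cyp4a10, 0.107 for Zbtb16, 0.12 for Mup16, 0.164 for Fkbp5 and for Mup18, and 0.325 for Cxcl1. Of the 7, 5 were also past 2-fold in the 14-day pair, but both libraries of that pair are in the test. Set against the mean of both controls, 75 genes (0.635%) were 2-fold apart, 35 higher and 40 lower in OGA-KO, among them 22 of the 63 higher and 19 of the 36 lower ones; the larger number of higher genes in the pair was thus not seen against both controls. The words rose, fell and changed are used below for these 7 genes only.

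The list of major urinary protein (Mup) genes had the lowest median of the 47 lists, although no Mup gene had as low a ratio as Oga or Cxcl1. The Mup genes encode small lipid-binding proteins that male mouse liver secretes in large amounts and that carry pheromones in urine, and their transcription is known to depend on pulsed growth hormone and on nutritional state. Of the 20 Mup genes 17 lay below 0, where 49.6% of all genes did. Together with Obp2a, another scent carrier at 0.14, the 21-gene list had a median of -0.65, with 11 members at least 1.5-fold lower, 6 of them 2-fold lower, and none 1.5-fold higher. The summed Mup counts made up 0.967% of the OGA-KO library and 1.21% of the control library at 14 days, and 0.968% of OGA-KO and 1.55% of control at 28 days. In the OGT control library of 28 days they made up 0.236%. The 28-day controls of both lines thus lay further apart than the 14-day pair did.

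Promoters are shown for 4 of the Mup copies with an identity of at least 94% to Mup17, which bears on how far single members can be read. The RefSeq sequence (GRCm38.p6, all on the minus strand) covers 250 bases before to 50 after the start. The intervals are chr4:61595783-61596082 for Mup17, chr4:61674045-61674344 for Mup18, chr4:60421903-60422202 for Mup9 and chr4:60662346-60662645 for Mup11. Capitals mark bases that are not identical to Mup17 in the pairwise alignment.
Mup17: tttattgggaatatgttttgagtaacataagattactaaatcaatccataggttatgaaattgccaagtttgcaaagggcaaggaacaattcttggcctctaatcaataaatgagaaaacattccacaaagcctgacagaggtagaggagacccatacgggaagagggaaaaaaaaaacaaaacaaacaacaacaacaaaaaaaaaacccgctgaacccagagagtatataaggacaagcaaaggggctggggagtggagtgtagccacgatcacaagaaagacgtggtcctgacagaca
Mup18: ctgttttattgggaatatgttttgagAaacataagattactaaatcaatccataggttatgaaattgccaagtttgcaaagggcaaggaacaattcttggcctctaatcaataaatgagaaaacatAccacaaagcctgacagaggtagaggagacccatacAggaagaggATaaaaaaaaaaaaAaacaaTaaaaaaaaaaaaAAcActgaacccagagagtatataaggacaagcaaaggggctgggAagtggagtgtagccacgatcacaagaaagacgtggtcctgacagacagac
Mup9: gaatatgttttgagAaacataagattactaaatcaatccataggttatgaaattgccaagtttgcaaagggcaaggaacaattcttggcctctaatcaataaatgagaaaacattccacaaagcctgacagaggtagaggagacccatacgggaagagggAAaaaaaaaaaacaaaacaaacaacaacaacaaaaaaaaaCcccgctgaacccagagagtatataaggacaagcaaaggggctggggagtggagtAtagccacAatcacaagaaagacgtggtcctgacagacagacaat
Mup11: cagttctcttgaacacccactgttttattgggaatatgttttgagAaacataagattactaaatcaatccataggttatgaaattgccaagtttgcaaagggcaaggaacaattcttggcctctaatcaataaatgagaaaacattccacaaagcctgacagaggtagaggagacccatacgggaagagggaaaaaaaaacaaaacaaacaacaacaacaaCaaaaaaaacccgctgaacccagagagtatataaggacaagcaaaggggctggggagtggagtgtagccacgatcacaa
Over the aligned columns the identity to Mup17 was 94% for Mup18, 98% for Mup9 and 98.9% for Mup11, and the main difference of Mup18 was the length and composition of an A-rich stretch. Of the members not shown, Mup15 (98.7%) and Mup2 (98.3%) were more like Mup17 than Mup18 was. Others were less alike, with an identity of 74.6% for Mup21, 76.9% for Mup3 and 82.3% for Mup6. Identity of a promoter does not measure that of the transcript, from which the reads come. The log2 ratios were -1.21 for Mup17, -1.44 for Mup18, -1.75 for Mup9 and -0.30 for Mup11. Mup9 and Mup11, near-identical to Mup17 in this window, thus had unlike ratios. How reads of near-identical transcripts were assigned is not given in the sources used here, and the values of single Mup genes are therefore uncertain.

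Mup17 had 410 CPM in OGA-KO and 948 CPM in control at 14 days, and 432 CPM in OGA-KO and 698 CPM in control at 28 days. Mup18 had 10.7 CPM in OGA-KO and 29.3 CPM in control, and 19.1 CPM in OGA-KO and 35.6 CPM in control at 28 days. Mup16 had 26.3 CPM in OGA-KO and 62.8 CPM in control, and 41.2 CPM in OGA-KO and 74.2 CPM in control at 28 days. In these 3 genes both OGA-KO libraries lay below both controls. Mup9 had 115 CPM in OGA-KO and 388 CPM in control at 14 days, but 160 CPM in OGA-KO and 146 CPM in control at 28 days, so that the 14-day control stood above the other 3 libraries. Mup10 (-1.22 at 14 days, 0.47 at 28 days) had the same pattern. Mup2, at 54.6 CPM in OGA-KO and 110 CPM in control at 14 days, had 49.3 CPM in OGA-KO and 55.3 CPM in control at 28 days, again with the 14-day control highest. Mup7 had 1165 CPM in OGA-KO and 1824 CPM in control (-0.65), and 1238 CPM in OGA-KO and 2386 CPM in control at 28 days. Mup20 (0.27), Mup14 (0.13) and Mup21 (0.07) were the 3 members above 0. Of the 21 list members, 14 were below 0 at both times and none above 0 at both. The list of 27 male-biased liver genes, which counts Mup1, Mup7, Mup20 and Mup21 among its members, had 16 above and 11 below 0 and a median of 0.05. Cyp4a12b stood at 0.57 and Mup1 at -0.86. At 28 days 5 of the 27 lay above and 22 below 0 (median -0.22). Between the OGA controls, of which that of 14 days is shared, the median was 0.22.

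**Figure D2:**
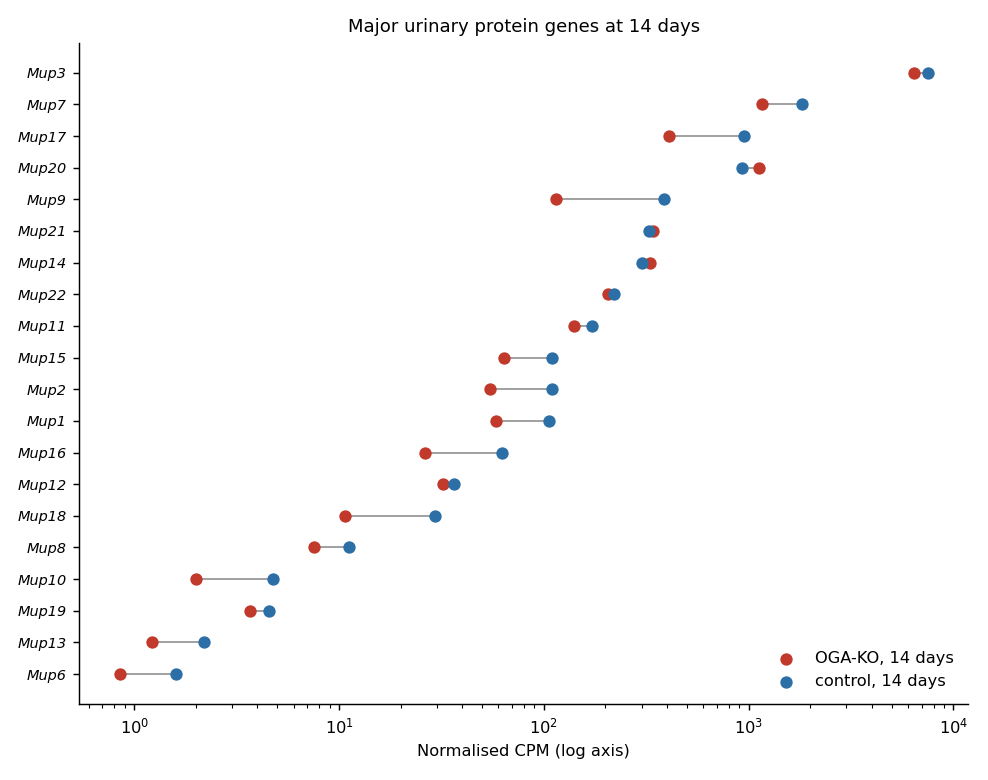
Normalised CPM (log axis) of the 20 Mup genes in the OGA-KO and the control library at 14 days, ordered by the control level, with 1 pooled library per point. In 17 of the 20 genes the OGA-KO point lies to the left of the control point; Mup20, Mup14 and Mup21 are the exceptions.

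Genes that glucocorticoids induce were mostly higher in OGA-KO, 2 of them past the test. Zbtb16, also called PLZF, encodes a zinc finger transcription regulator, and Fkbp5 encodes a chaperone partner of the glucocorticoid receptor; both are textbook glucocorticoid targets. Zbtb16 had 2096 counts (77.6 CPM) in OGA-KO and 760 (31.0 CPM) in control at 14 days (log2 1.32, 1.20 to 1.44), and 56.5 CPM in OGA-KO and 29.8 CPM in control at 28 days. Fkbp5 had 1035 counts (38.3 CPM) in OGA-KO and 512 (20.9 CPM) in control (0.87, 0.72 to 1.03), and 61.7 CPM in OGA-KO and 19.8 CPM in control at 28 days. For both genes both OGA-KO libraries lay well above both controls. The 2 controls lay close together, which the test that picked these genes favours. Only the 28-day OGA-KO library is outside that test. Of the 19 measured genes on the list, 15 lay above 0, where 50.4% of all genes did, and 4 below, with a median of 0.28. At 1.5-fold 5 were higher and 1 lower, against 2.79% and 1.84% of all genes.

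The other large ratios on that list differed between the times. Dusp1, a phosphatase that switches off MAP kinases, had 25.7 CPM in OGA-KO and 14.5 CPM in control (0.83), but 26.7 CPM in OGA-KO and 22.9 CPM in control at 28 days. Igfbp1, a secreted binding protein for insulin-like growth factors that insulin represses, had 75.4 CPM in OGA-KO and 25.5 CPM in control at 14 days (1.56, 1.44 to 1.70). At 28 days it had 37.7 CPM in OGA-KO and 81.6 CPM in control (-1.11), so the order turned round, and the 28-day control was the highest of the 4 libraries. Lcn2, an iron-binding acute phase protein, stood at -0.83 with 16.9 CPM in OGA-KO and 30.1 CPM in control, and at 1.64 at 28 days. Tat and Sgk1, which glucocorticoids also induce, stood at 0.05 and -0.08. Ddit4, an inhibitor of mTORC1 signalling with the same kind of regulation, had 16.8 CPM in OGA-KO and 7.51 CPM in control (1.16), and -0.08 at 28 days.

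**Figure D3:**
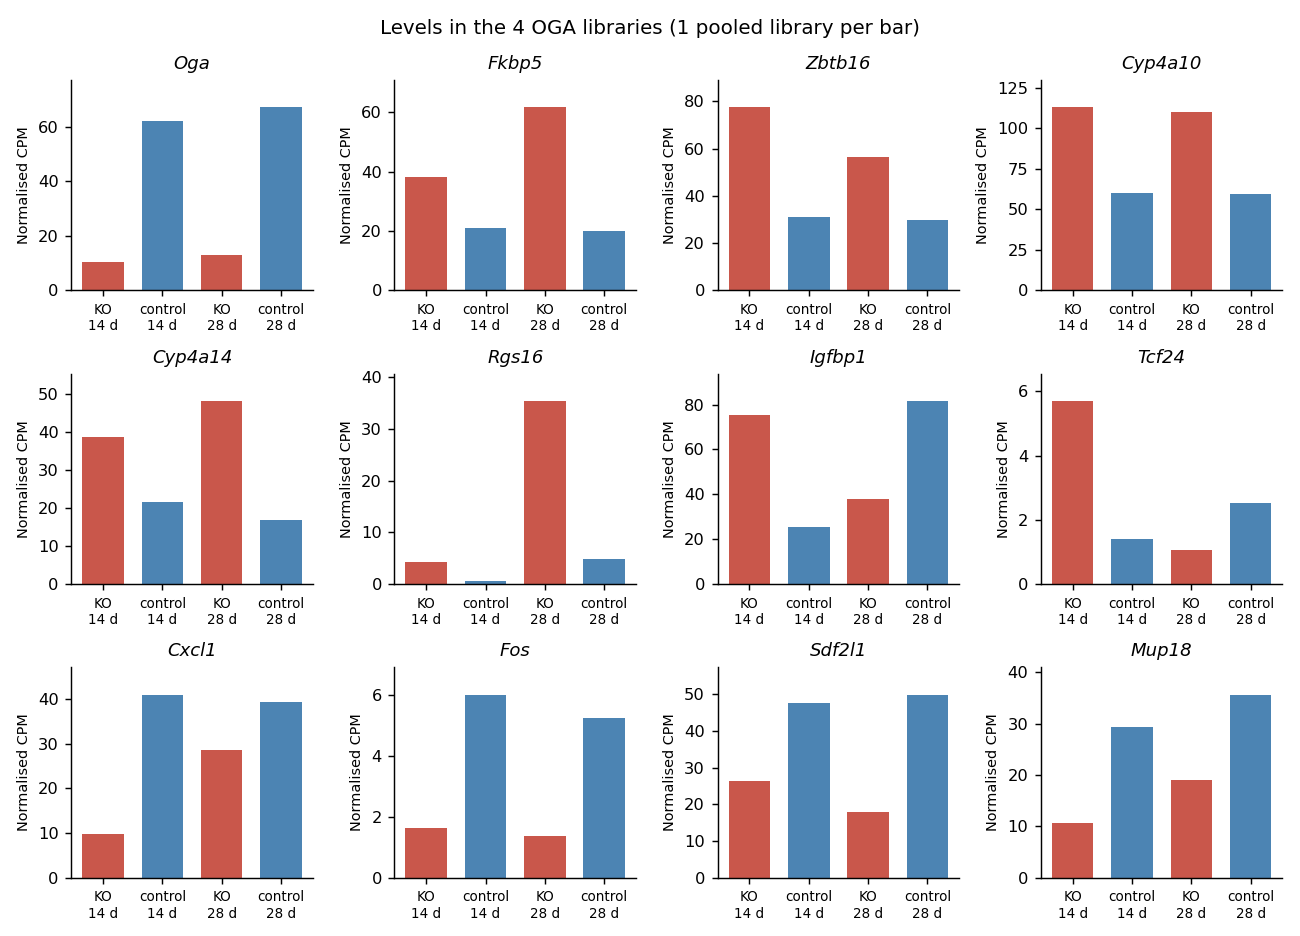
Normalised CPM of 12 genes in the 4 OGA libraries, OGA-KO and control at 14 days and the same pair at 28 days, with 1 pooled library per bar and no error bars since there are no replicates. Oga, Fkbp5, Zbtb16, Cyp4a10, Cyp4a14, Fos, Sdf2l1 and Mup18 separate both OGA-KO libraries from both controls, while Igfbp1 and Tcf24 turn round between the times and Cxcl1 is low in the 14-day OGA-KO library.

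Nearly all PPARA targets and fatty acid oxidation genes lay slightly above 0. PPARA is the nuclear receptor that turns on fatty acid breakdown in the fasted liver. Of 38 measured genes 36 lay above 0, against 50.4% of all genes, but the sizes were small: the median was 0.16, 4 were 1.5-fold higher and none was 1.5-fold lower. At 28 days 24 of the 38 lay above 0, against 50.5% of all genes, with a median of 0.09. Cyp4a10, an omega-hydroxylase of fatty acids, had 3054 counts (113 CPM) in OGA-KO and 1477 (60.3 CPM) in control (0.91, 0.82 to 1.0), and 110 CPM in OGA-KO and 59.6 CPM in control at 28 days. It is the member past the test, which favours genes with close controls. Its levels were close in the 2 controls and also in the 2 OGA-KO libraries, of which that of 28 days is outside the test. Its neighbour Cyp4a14 had 38.7 CPM in OGA-KO and 21.6 CPM in control (0.84), and 48.1 CPM in OGA-KO and 16.9 CPM in control at 28 days (1.51), but missed the threshold by edgeR (adjusted p = 0.0938). Vnn1, a pantetheinase induced by PPARA ligands, had 7.33 CPM in OGA-KO and 3.47 CPM in control (1.06). At 28 days Vnn1 had 9.34 CPM in OGA-KO and 12.3 CPM in control (-0.40), so the 14-day control was the low library. Acot1, an acyl-CoA thioesterase, stood at 0.67 with 0.08 at 28 days. Ppara itself had 76.0 CPM in OGA-KO and 60.7 CPM in control (0.32). Cyp4a copies are similar in sequence, which makes their split uncertain too.

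Lipid synthesis genes lay near 0 or slightly below it. Of 23 fatty acid synthesis genes 9 lay above and 14 below 0 (median -0.05). Acly, which makes cytosolic acetyl-CoA from citrate, was the lowest at -0.54 with 221 CPM in OGA-KO and 322 CPM in control. Of 26 cholesterol synthesis genes 6 lay above and 20 below 0 (median -0.11), with Dhcr7 at -0.29 and Hmgcs1 at -0.26. At 28 days 20 of the 26 lay above and 6 below 0 (median 0.05), and between the OGA controls, of which that of 14 days is shared, the median was -0.27. No member of these 2 lists was 1.5-fold apart.

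Female-biased liver genes included several Cyp genes with large ratios. Of 30 listed genes only 16 had a row, and 15 of these reached 1 CPM. Of the 15 measured members 13 lay above and 2 below 0, with a median of 0.41, and 5 were 1.5-fold higher. Cyp4a10 and Cyp4a14, described above, are on this list as well, and all mice were male. Cyp2c69 had 295 counts (10.9 CPM) in OGA-KO and 70 (2.86 CPM) in control (1.91, 1.55 to 2.33). At 28 days it had 4.69 CPM in OGA-KO and 5.62 CPM in control, so its level in the 14-day OGA-KO library was the highest and in the 14-day control the lowest of the 4. Cyp2c40, a close relative outside the list, had 26.2 CPM in OGA-KO and 10.2 CPM in control (1.35), and 14.9 CPM in OGA-KO and 19.3 CPM in control at 28 days, in the same pattern. These Cyp2c copies are near-identical. Nipal1, a magnesium transporter gene, had 3.26 CPM in OGA-KO and 1.84 CPM in control (0.80), and 4.65 CPM in OGA-KO and 1.30 CPM in control at 28 days. At 28 days the list median was 1.03, with 11 of 15 members above 0 at both times and none below at both.

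Most clock genes lay on the same side of 0 at both times, with smaller ratios at 14 days. In the mammalian clock CLOCK and BMAL1 (Arntl) or NPAS2 drive the Per, Cry, Nr1d and Ciart genes from E-boxes, and the products of these genes repress their activators, while DBP, TEF and HLF act at D-boxes. The activators Npas2 (-0.64), Arntl (-0.30) and Clock (-0.19) lay below 0, and Nr1d1 (0.51), Nr1d2 (0.49), Per3 (0.45), Per1 (0.33) and Ciart (0.87) above. At 28 days the same genes stood at -2.31, -1.66 and -0.73 for the activators, and at 0.87, 1.04, 3.10, 2.06 and 4.78 for the others. Per2 (-0.17 at 14 days, 1.29 at 28 days) lay on opposite sides, and Cry1 stood at -0.04 at 14 days and -1.44 at 28 days. Over the 18 core genes, 9 were above 0 at both times and 5 below 0 at both. The median was 0.13 at 14 days, and 1 gene each way was 1.5-fold apart. Between the OGA controls, of which that of 14 days is shared, the median of this list was 0.13. Ciart had 48 counts (1.78 CPM) in OGA-KO and 23 (0.939 CPM) in control at 14 days, and 21.0 CPM in OGA-KO and 0.688 CPM in control at 28 days. The hour at which each liver was taken is not given in the sources used here.

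The promoters of Ciart and Per3 are shown because these genes had among the largest clock ratios at 28 days and lie above 0 at both times. The intervals are chr3:95882179-95882478 (minus strand) for Ciart, with the E-box CACGTG in capitals, and chr4:151044616-151044915 (minus strand) for Per3, with the D-box TTATGTAA in capitals.
Ciart: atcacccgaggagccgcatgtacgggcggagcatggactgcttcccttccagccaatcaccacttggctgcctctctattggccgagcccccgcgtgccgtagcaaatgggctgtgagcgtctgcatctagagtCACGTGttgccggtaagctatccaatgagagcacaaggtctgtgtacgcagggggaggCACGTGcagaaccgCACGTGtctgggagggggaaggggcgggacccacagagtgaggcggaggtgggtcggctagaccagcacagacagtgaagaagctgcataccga
Per3: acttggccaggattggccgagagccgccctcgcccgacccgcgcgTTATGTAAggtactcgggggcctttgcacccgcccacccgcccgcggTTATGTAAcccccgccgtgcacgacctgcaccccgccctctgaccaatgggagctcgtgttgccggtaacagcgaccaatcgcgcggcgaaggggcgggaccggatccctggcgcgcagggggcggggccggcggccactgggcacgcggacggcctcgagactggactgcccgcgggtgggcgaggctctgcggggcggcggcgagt
The E-boxes of Ciart begin 116, 58 and 44 bases before the start, and the D-boxes of Per3 begin 205 and 158 bases before it. On both strands, CACGTG is found in 7.15% of the 32841 promoters of the table and in 4 of the 13 clock core genes with a promoter there, and TTATGTAA in 0.938% of promoters and 1 of the 13. Among promoters of genes with at least 1 CPM the shares were 11.7% for CACGTG and 0.695% for TTATGTAA, and of the 16 clock output genes with a promoter 2 held CACGTG and 0 held TTATGTAA. A match is a description of the letters and not of binding.

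Among clock output genes Rgs16 and Dbp had the largest ratios. Rgs16, a rhythmic regulator of G protein signalling in liver, had 115 counts (4.26 CPM) in OGA-KO and 16 (0.653 CPM) in control at 14 days (2.57, 1.94 to 3.56). At 28 days it had 35.4 CPM in OGA-KO and 4.81 CPM in control (2.86), so the 28-day control was slightly above the 14-day OGA-KO library. Dbp, the D-box activator, had 15.2 CPM in OGA-KO and 6.37 CPM in control (1.25, 0.99 to 1.53), and 156 CPM in OGA-KO and 17.7 CPM in control at 28 days. Tef (0.57) and Hlf (0.17), its relatives, stood lower on the same side. Noct, a rhythmic phosphatase of NADP cofactors, had 19.1 CPM in OGA-KO and 38.9 CPM in control (-1.03), and 20.6 CPM in OGA-KO and 12.9 CPM in control at 28 days, so the 14-day control was the high library. Of 17 output genes 13 lay above 0 and 4 were 1.5-fold higher, with a median of 0.17 at 14 days and 0.67 at 28 days. In the edgeR fit of all 6 libraries, which estimates 1 OGA-KO effect over both times, Rgs16 (log2 2.84, adjusted p = 0.0091) and Oga (log2 -2.48, adjusted p = 0.00617) were 2 of the 4 genes (0.0333% of 12026) that passed. The others, Ctrb1 and Pnlip, are pancreas genes whose calls rest on the 28-day OGA-KO library. Without that library, and with no filter, the log2 effect was 0.00 for each. Rgs16 passed neither without any single OGA control (adjusted p = 0.657 without the 14-day control, 0.802 without that of 28 days) nor without the 28-day OGA-KO library (log2 0.61, adjusted p = 0.866), and without a control Oga did not pass either (0.073 and 0.182).

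Cxcl1 and most acute phase genes had lower levels in OGA-KO at 14 days, while interferon response and antigen presentation genes were split evenly (28 above and 28 below 0, median 0.00). Cxcl1, a chemokine that draws neutrophils, had 263 counts (9.73 CPM) in OGA-KO and 1003 (40.9 CPM) in control at 14 days (-2.06, -2.27 to -1.88). At 28 days it had 28.5 CPM in OGA-KO and 39.3 CPM in control (-0.46). Both controls were at about the same level, which the test that picked the gene favours, and the 14-day OGA-KO library was the low one. Acute phase proteins are plasma proteins whose synthesis inflammation raises or lowers. Of 36 measured genes 8 lay above and 28 below 0 (median -0.17). Among them 1 was 1.5-fold higher and 2 lower, against 2.79% and 1.84% of all genes. Saa2, a serum amyloid A, had 53.8 CPM in OGA-KO and 95.8 CPM in control (-0.83), and Saa1 had 223 CPM in OGA-KO and 330 CPM in control (-0.56). At 28 days Saa2 had 646 CPM in OGA-KO and 702 CPM in control, far above both 14-day libraries. Hamp, the iron hormone hepcidin, stood at -0.42 and its paralog Hamp2 at 0.61. At 28 days 26 of the 36 lay above 0 and the median was 0.31, and no test of the difference between the times was made. Socs3 (-0.49) and Cish (-0.87), feedback inhibitors of cytokine signalling, stood below 0 too. Cish, which growth hormone induces through STAT5, had 21.0 CPM in OGA-KO and 38.3 CPM in control at 14 days, and 48.2 CPM in OGA-KO and 17.5 CPM in control at 28 days. All 5 measured neutrophil markers lay below 0 (-0.14 or lower), with a summed level of 22.9 CPM in OGA-KO and 37.1 CPM in control. Of 15 listed only 5 had a row, and the interval excluded 0 for 1 of the 5. Lcn2, also counted among the acute phase proteins, is one of the 5 and makes up most of both sums. With a minimum of 5 CPM it was the 1 member left (-0.83). At 28 days all 5 lay above 0 (median 1.11), with 299 CPM in OGA-KO and 97.9 CPM in control, and between the OGA controls, which share the 14-day library, their median was -0.79. Their part in the Cxcl1 result was not tested.

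Chaperones of the endoplasmic reticulum (ER) and of the cytosol mostly lay slightly below 0. The unfolded protein response raises ER chaperones when secretory proteins misfold, through ATF6, XBP1 and PERK. Of 36 measured genes 7 lay above and 29 below 0, with a median of -0.09 and 2 genes 1.5-fold lower. At 28 days the median was -0.23, and 27 of the 36 were below 0 at both times. Sdf2l1, an ER protein that works with the chaperone BiP, had 714 counts (26.4 CPM) in OGA-KO and 1166 (47.6 CPM) in control (log2 -0.85, -0.99 to -0.71), and 17.9 CPM in OGA-KO and 49.9 CPM in control at 28 days. It missed the threshold by edgeR against both controls (adjusted p = 0.0678) and passed in the fit restricted to the 3 OGA libraries. Hyou1, a large ER chaperone, had 253 CPM in OGA-KO and 341 CPM in control (-0.43). Hspa5, which is BiP itself, stood at -0.27 and Hsp90b1 at -0.26. Herpud1, an ER protein of the degradation pathway, went against the list at 0.47, with 587 CPM in OGA-KO and 422 CPM in control. Trib3, a target of the PERK arm, stood at 0.95, and Asns, another, at -0.48.

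The ER stress element is shown for Hspa5, the best known gene of the response, and for Derl3, at -0.60 the second lowest member after Sdf2l1. The intervals are chr2:34771840-34772139 (plus strand) for Hspa5 and chr10:75893148-75893447 (plus strand) for Derl3. The element, which is CCAAT and CCACG with any 9 bases between them, is in capitals, in Hspa5 as written and in Derl3 on the opposite strand.
Hspa5: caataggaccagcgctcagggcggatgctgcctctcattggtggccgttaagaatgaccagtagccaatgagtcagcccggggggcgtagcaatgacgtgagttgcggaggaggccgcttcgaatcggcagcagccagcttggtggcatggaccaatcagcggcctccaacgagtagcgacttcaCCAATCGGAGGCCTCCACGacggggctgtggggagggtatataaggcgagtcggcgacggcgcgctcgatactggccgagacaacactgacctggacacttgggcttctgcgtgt
Derl3: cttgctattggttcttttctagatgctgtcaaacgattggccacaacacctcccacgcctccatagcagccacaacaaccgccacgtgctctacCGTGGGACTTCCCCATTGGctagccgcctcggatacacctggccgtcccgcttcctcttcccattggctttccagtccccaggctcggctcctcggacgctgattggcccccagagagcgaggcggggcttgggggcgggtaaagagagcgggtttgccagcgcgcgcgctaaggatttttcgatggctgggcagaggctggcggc
It begins 65 bases before the start in Hspa5 and 156 bases before it in Derl3. On both strands this exact form is found in 0.119% of all promoters of the table, in 0.182% of those of genes with at least 1 CPM and in 9 of the 30 response genes with a promoter there. Those 9 genes, which besides Hspa5 and Derl3 are Hsp90b1, Dnajc3, Creld2, Pdia6, Calr, Canx and Syvn1, ran from -0.60 for Derl3 to -0.01 for Syvn1 at 14 days.

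Cytosolic heat shock chaperones had 7 of 30 members above and 23 below 0 (median -0.11). Hspa1b, the inducible HSP70, had 7.62 CPM in OGA-KO and 12.6 CPM in control (-0.72). Hsp90aa1, the inducible HSP90, had 108 CPM in OGA-KO and 159 CPM in control (-0.56), and 109 CPM in OGA-KO and 156 CPM in control at 28 days, with both OGA-KO libraries below both controls.

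Ribosomal protein genes lay above 0 almost without exception, by a small amount. Of 78 measured genes 74 were above 0 at 14 days and 71 at both times, with a median of 0.16 at each time. None was 1.5-fold apart at 14 days. Rps12 had 200 CPM in OGA-KO and 157 CPM in control (0.35), and 179 CPM in OGA-KO and 159 CPM in control at 28 days. The same genes had a median of -0.05 between the controls. Secreted hepatocyte proteins and clotting factors were near 0 (median 0.05), with Alb, serum albumin, at 62600 CPM in OGA-KO and 55830 CPM in control (0.17). Respiratory chain genes encoded in the nucleus had a median of 0.02, and the 13 encoded in mitochondrial DNA one of -0.07. Hepatocyte transcription factors had 9 above and 16 below 0 (median -0.05), with Nr1i3, the xenobiotic receptor CAR, at 0.47 and Onecut1 at -0.51.

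**Figure D4:**
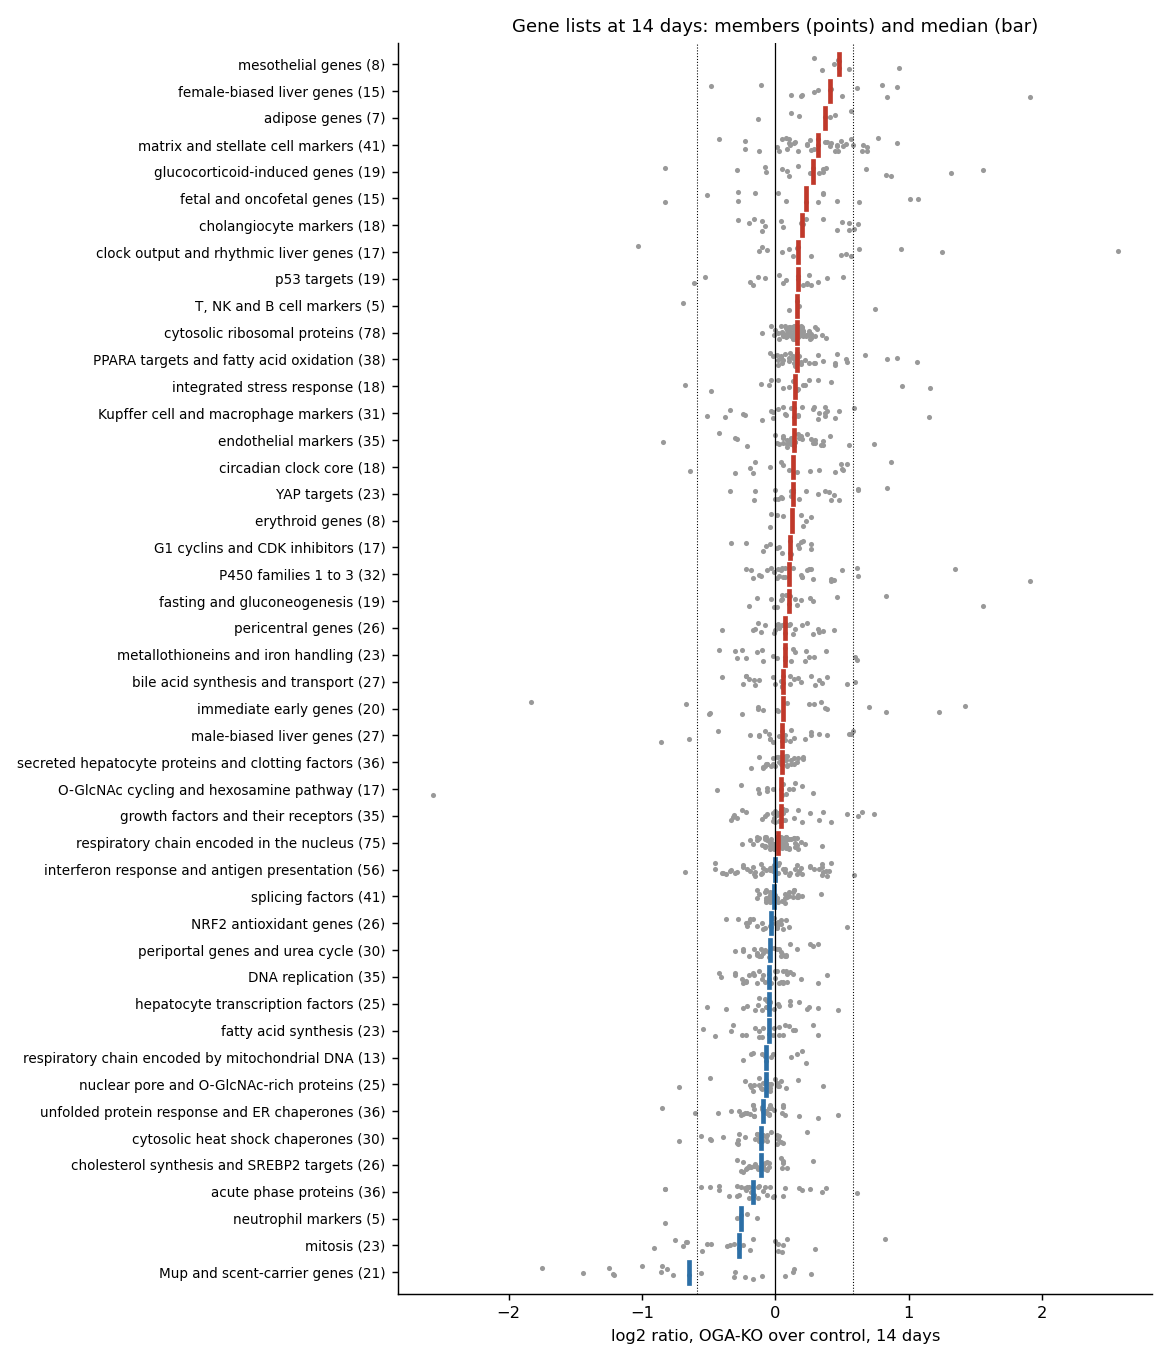
Log2 ratio of OGA-KO over control at 14 days for the members (points) of each gene list with at least 5 measured members, with the number of members in brackets and the list median as a bar, red above 0 and blue below, and dotted lines at 1.5-fold. The Mup list, with a median of -0.65, lies apart from the others, whose medians run from -0.27 for mitosis to 0.47 for mesothelial genes.

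Immediate early genes, which cells switch on within minutes of a stimulus, were split. Of 20 measured members 12 lay above and 8 below 0 (median 0.05). Among them 4 were 1.5-fold higher and 2 lower, against 2.79% and 1.84% of all genes. Fos, a subunit of AP-1, had 44 counts (1.63 CPM) in OGA-KO and 147 (6.00 CPM) in control (-1.83, -2.40 to -1.39), and 1.38 CPM in OGA-KO and 5.23 CPM in control at 28 days (-1.87), with both OGA-KO libraries below both controls. Egr1 (-0.50) and Nr4a1 (-0.67) lay on the same side. Klf10, a TGF-beta-inducible and rhythmic repressor, had 19.4 CPM in OGA-KO and 8.20 CPM in control (1.23), and 31.9 CPM in OGA-KO and 15.4 CPM in control at 28 days. Maff, a small MAF protein, had 6.25 CPM in OGA-KO and 2.29 CPM in control (1.42), and 11.8 CPM in OGA-KO and 2.94 CPM in control at 28 days (1.97). Jun, the partner of Fos in AP-1, stood at 0.02.

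Apart from the neutrophil markers given above, markers of cells other than hepatocytes were mostly above 0 by small amounts. In whole liver more cells of a type and more RNA per cell cannot be told apart. Of 41 matrix and stellate cell genes 37 lay above and 4 below 0 (median 0.32). Among them 6 were 1.5-fold higher, against 2.79% of all genes. Col1a1, the main collagen of scar tissue, had 30.7 CPM in OGA-KO and 18.9 CPM in control (0.69), and 17.4 CPM in OGA-KO and 15.6 CPM in control at 28 days, and Hand2, a transcription factor of stellate cells, stood at 0.77. The summed level of the list was nonetheless 2782 CPM in OGA-KO and 2774 CPM in control. All 8 measured mesothelial genes, which mark the cells of the liver surface, were above 0 (median 0.47), with a sum of 29.6 CPM in OGA-KO and 20.6 CPM in control. Their counts were low: the interval lay above 0 for 4 of the 8, and with a minimum of 5 CPM 2 genes were left (median 0.45). Of 35 endothelial genes 29 were above 0 (median 0.14), with a sum of 861 CPM in OGA-KO and 776 CPM in control. Of 18 cholangiocyte genes 12 were above 0 (median 0.20), with 780 CPM in OGA-KO and 803 CPM in control. Of 31 Kupffer cell and macrophage genes 22 were above 0 (median 0.14), with 610 CPM in OGA-KO and 565 CPM in control. The erythroid list had 6 of 8 above 0. At 28 days 27 of the 41 matrix genes lay above 0 (median 0.15), 16 of the 35 endothelial (-0.03) and 3 of the 8 erythroid genes (-0.05). In the same pair 10 of the 18 cholangiocyte (0.14), 26 of the 31 macrophage (0.29) and all 8 mesothelial genes (0.77) lay above 0. T, NK and B cell genes had 5 of 29 listed members measured, and 16 of the 17 pancreas genes with a row were under 1 CPM in both 14-day libraries. The part of these cell types in the ratios of other genes was not tested. Mesothelial genes were lower in the 28-day than in the 14-day control (median -0.72 between them).

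Mitosis genes had low counts and mostly lay below 0, which did not hold for G1 cyclins and CDK inhibitors. Of 23 measured mitosis genes 7 lay above and 16 below 0 (median -0.27). Among them 1 was 1.5-fold higher and 5 lower, against 2.79% and 1.84% of all genes. Cdca8, a subunit of the chromosomal passenger complex, was counted 26 times in OGA-KO and 46 times in control (-0.91), while Cdk1, the mitotic kinase, was counted 56 times in OGA-KO and 28 times in control (0.82). The summed level of the list was 56.7 CPM in OGA-KO and 63.6 CPM in control. Counts this low leave wide intervals: the interval excluded 0 for 4 of the 23, and with a minimum of 5 CPM 3 genes were left, with a median of -0.00. Of 35 DNA replication genes 15 lay above and 20 below 0 (median -0.05), and of 17 G1 cyclins and CDK inhibitors 12 above and 5 below (median 0.11). Ccnd1, the cyclin that starts the hepatocyte cycle after hepatectomy, stood at 0.27 with 44.9 CPM in OGA-KO and 37.3 CPM in control, and at 1.64 at 28 days. The list medians at 28 days were -0.28 for mitosis, -0.23 for DNA replication and -0.02 for G1 genes. Of the 23 mitosis genes 13 were below 0 at both times and 4 above 0 at both.

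The 99 genes past 2-fold mostly had low counts, and a minority of them were past 2-fold at 28 days too. Only 8 of the 63 higher and 8 of the 36 lower reached 10 CPM in the higher library. Of the 63, 50 had at least 1 CPM at 28 days too, and of these 37 lay on the same side and 12 were again 2-fold higher, which is 19% of the 63 and 5.97% of the 201 genes 2-fold higher at 28 days. Of the 36, 32 had at least 1 CPM, and of these 24 lay on the same side and 7 were again 2-fold lower, which is 19.4% of the 36 and 6.8% of the 103. Of all genes at 28 days 1.7% were 2-fold higher and 0.869% 2-fold lower, and 50.5% lay above 0. The median ratio at 28 days was 0.53 for the higher and -0.69 for the lower genes, against 0.00 for all genes. The 2 pairs share no library. Among the 63 higher genes the 14-day control was the lowest of the 4 OGA libraries in 53 and the OGA-KO library the highest in 39, and among the 36 lower genes the control was the highest in 25 and OGA-KO the lowest in 23. The genes were picked by the ratio of these same 14-day libraries, so these counts follow in part from the 2-fold rule.

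The 12 genes 2-fold higher at both times were Rgs16, Dbp, Klf10, Maff, Slc6a16, Eif4e3, Cyp2g1, Batf3, Cxcr5, Gpc3, Hebp2 and Pkdrej. Eif4e3, a cap-binding relative of the translation factor eIF4E, had 4.26 CPM in OGA-KO and 1.96 CPM in control at 14 days (1.09) and 6.71 CPM in OGA-KO and 2.79 CPM in control at 28 days (1.24). Gpc3, a glypican known from fetal hepatocytes, had 67 counts (2.48 CPM) in OGA-KO and 28 (1.14 CPM) in control (1.07), and 2.51 CPM in OGA-KO and 0.611 CPM in control at 28 days (1.91). Besides Oga and Fos the lower genes were Tdrkh, Mypop, Sgsm1, Praf2 and a predicted gene. Tdrkh, a Tudor domain protein of the piRNA pathway in germ cells, had 1.41 CPM in OGA-KO and 3.84 CPM in control (-1.40), and 1.17 CPM in OGA-KO and 4.43 CPM in control at 28 days (-1.85). Sgsm1, a modulator of small G proteins, stood at -1.08 and -1.10. Each of these genes has the same order in both pairs, and of them Oga alone passed edgeR against both controls.

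**Figure D5:**
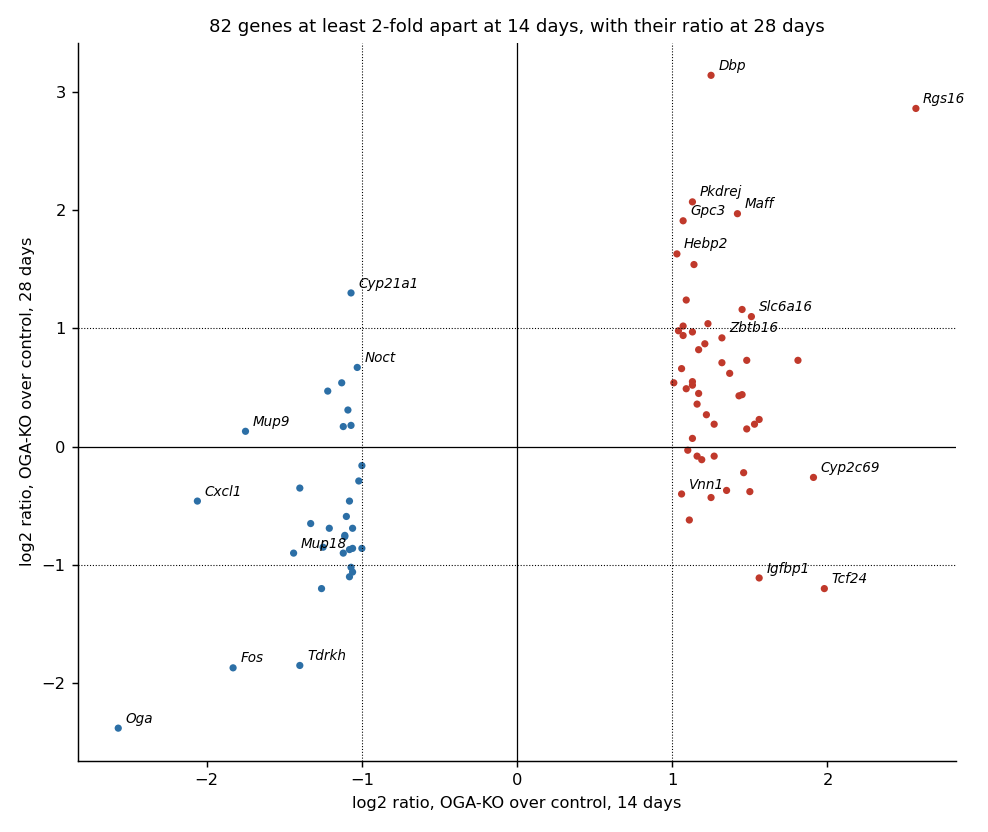
Log2 ratio of OGA-KO over control at 14 days (x axis) and at 28 days (y axis) for the 82 genes past 2-fold at 14 days with at least 1 CPM at 28 days, higher genes in red and lower ones in blue, dotted lines at 2-fold. Most points lie on the same side of 0 on both axes; Igfbp1 and Tcf24 (lower right) and Cyp21a1 (upper left) lie past 2-fold on opposite sides.

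Some of the largest ratios at 14 days were smaller at 28 days. Mettl7a2, a methyltransferase-like gene, was counted 34 times in OGA-KO and not once in control. The floor of 3 counts per library makes it at least 10.3-fold higher in OGA-KO, and 0 counts allow up to 0.122 CPM in the control. At 28 days it had 0.849 CPM in OGA-KO and 0.726 CPM in control, so the 14-day control was the library that stood apart. Reads of its near-identical neighbours can be split among copies, and its value is uncertain. Elmo1, an adaptor in cell migration, stood at 1.53 with 0.19 at 28 days. Ntrk2, a neurotrophin receptor, stood at 1.81 with 2.48 CPM in OGA-KO and 0.653 CPM in control, and 0.73 at 28 days. Lgals4, a galectin, had 25.5 CPM in OGA-KO and 12.7 CPM in control, and 16.6 CPM in OGA-KO and 14.9 CPM in control at 28 days. Among the genes of high CPM past 1.5-fold, St3gal5, which makes the ganglioside GM3, had 115 CPM in OGA-KO and 74.7 CPM in control (0.62), and 140 CPM in OGA-KO and 55.4 CPM in control at 28 days. Pim3, a kinase, had 97.1 CPM in OGA-KO and 54.9 CPM in control (0.82), and 90.4 CPM in OGA-KO and 60.4 CPM in control at 28 days, and missed the threshold by edgeR (adjusted p = 0.0678). Phlda1 had 137 CPM in OGA-KO and 208 CPM in control (-0.60), but 192 CPM in OGA-KO and 114 CPM in control at 28 days.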

How the data were processed

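Messenger RNA of whole liver was measured in 6 libraries, of which the OGA-KO and control libraries of 14 days form the comparison and those of 28 days a second one. The authors deposited raw counts per Ensembl gene, with both lanes combined, and a table of CPM, which in the 14-day pair equalled the deposited count divided by its column total (largest difference 4.9e-06). Per the submitters' processing notes STAR, Subread and edgeR were used with the genome build mm39; settings, versions and strand handling are not given in the sources used here, so antisense and near-identical genes are uncertain. The annotation used here was of GRCm38 and gave symbols to 12019 of 12027 rows.

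Ratios used TMM effective library sizes over all 6 libraries (edgeR 4.0.16 under R 4.3.3), with 2 as the prior count. Intervals are 95% exact Clopper-Pearson intervals of the conditional binomial share; reads are not independent molecules, so intervals and the floor of 3 counts cover counting error only. A gene needed 1 CPM in the higher library and a 2-fold or 1.5-fold ratio. Each library is 1 pool of 3 mice and no group has another pool, so p-values do not measure spread between pools of 1 group. In the test of 14-day OGA-KO against both controls they rest on how far the controls of 14 and 28 days lay apart. In the fit over both times they rest on how unlike the OGA-KO over control ratios of 14 and 28 days were. The lone libraries of a group are assumed to vary like the rest. The fit over both times used 6 libraries and 5 coefficients, for the intercept, the line, the day and each knockout, which left 1 residual degree of freedom; the fit of OGA-KO at 14 days against both controls left out the 28-day OGA-KO library and the day term. Adjusted p-values are Benjamini-Hochberg over all genes. DESeq2 1.42.0 was an alternative. The procedures were tested on simulated data.

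The comparison and its 47 gene lists were chosen with earlier results of these data known. Named genes were Oga and Ogt, the 20 highest and 20 lowest by the interval bound nearest 0, the 8 most abundant 1.5-fold apart each way, genes 2-fold apart at both times, and, per list, at most 4 members of largest ratio, passing over predicted genes. Further list members and genes past the test were named after their values were seen.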

Additional observations from a re-analysis of the deposited data

Results flagged for a closer look

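In 3 genes the OGA-KO over control ratio was 2-fold in opposite directions at 14 and 28 days, each value from 1 library a side, and the difference between the times was not tested. Tcf24, a basic helix-loop-helix transcription factor gene, stood at a log2 of 1.98 at 14 days, with 5.70 CPM in OGA-KO and 1.39 CPM in control, and at -1.20 at 28 days, with 1.05 CPM in OGA-KO and 2.52 CPM in control, a difference of 3.18. Igfbp1 stood at 1.56 and -1.11, a difference of 2.68. Cyp21a1, a steroid hydroxylase gene of the adrenal gland, stood at -1.07 at 14 days, with 3.37 CPM in OGA-KO and 7.14 CPM in control, and at 1.30 at 28 days, with 7.36 CPM in OGA-KO and 2.94 CPM in control, a difference of -2.37.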

How the results depend on the processing

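The number of genes past 2-fold at 14 days was 99, and ran from 95 with library totals to 114 with a prior count of 0.25 under the scalings, prior and filters that kept it close, but it was 48 with a prior count of 10 (31 higher, 17 lower) and 27 with a minimum of 5 CPM (15 higher, 12 lower), because 72 of the 99 genes lay under 5 CPM. With that minimum the pair of 28 days passed 160 genes and the pair of controls 45. Against the mean of both controls, an alternative added after seeing the data, 75 passed (35 higher, 40 lower). The medians of the 47 lists moved by at most 0.03 with library totals and 0.05 with a prior count of 10, and 1 median near 0, of the splicing factors, changed sign with DESeq2's size factors (-0.01 and 0.01); with 5 CPM the medians moved by up to 0.57, that of the neutrophil list (-0.83 with 1 member left) most and that of mitosis (-0.00 with 3 left) next, and the T, NK and B cell list had no member left. No named gene changed direction; 4 moved beyond their interval with DESeq2's size factors, 1 with library totals and 1, Mettl7a2, with a prior count of 10.

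The edgeR test over both times, with 4 calls, gave 2 with DESeq2's size factors, 2 in the 4 OGA libraries alone and 36 with the DESeq2 Wald test. Leaving out 1 library at a time, without the day term, gave 0 to 318 calls: 318 without the 14-day OGA-KO library, 7 without that of 28 days, and 0 without the control of either time. The test of 14-day OGA-KO against both controls, with 7 calls, called the same 7 genes with DESeq2's size factors and without a filter. In the 3 OGA libraries alone it called those and Sdf2l1. The DESeq2 Wald test called 16, the 7 among them, with Cyp4a14, Pim3, Col1a1, Col3a1 and St3gal5 beside others. These settings were added after seeing the data. No paired analysis was possible because each group has 1 library, so that no 2 replicate numbers are shared; the day term pairs the OGA libraries by time only.

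The counting interval excludes 0 for 31.7% of genes between OGA-KO and control and for 31% between the controls. Differences between mice are averaged within a pool, and no spread between pools of 1 group was measured.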
